A study of Arabidopsis thaliana with 12 samples.

Results

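The 9 genes described here are the plant defensins PDF1.1 (AT1G75830), PDF1.2a (AT5G44420), PDF1.2b (AT2G26020), PDF1.2c (AT5G44430) and PDF1.3 (AT2G26010), the transcription factors ORA59 (AT1G06160) and ERF1 (AT3G23240), and the defence proteins HEL/PR4 (AT3G04720) and CHI-B (AT3G12500). They were named by locus as the ethylene and jasmonate defence set and were chosen by locus with the levels measured on these same 12 arrays in view. Their levels and differences are therefore a description without a test. Of the 9 loci, 8 were matched in the authors' deposited table of 21266 loci, and PDF1.1 was not. All 9 had a probe on the array, 8 were well above background on all 12 arrays, and these 8 are among the 19152 genes of the fit.

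The study compared gvs1-1 with the Col ecotype of Arabidopsis thaliana at the stages labelled DAE28 and DAE14, in the third and the fourth leaves. The groups were gvs1-1 at DAE28, gvs1-1 at DAE14, Col at DAE28 and Col at DAE14, with 3 independent biological samples each and 1 Agilent one-colour array per sample, 12 arrays in all. Plants had spent 23 or 37 days on soil in 16 h days and 8 h nights, and were harvested 5 h into the light period. The labels give no treatment and do not spell out DAE. gvs1-1 is described by its name alone, without a locus, and 1 line stands for the genotype.

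Ethylene stabilises the transcription factors EIN3 and EIL1, and jasmonate is perceived by the receptor COI1. Together these signals raise the AP2/ERF factors ERF1 and ORA59, which bind GCC-box promoters and activate PDF1.2, HEL and basic chitinase genes, a branch known for defence against necrotrophic fungi. A second jasmonate branch, driven by MYC2 and marked by VSP2, opposes it. Defensins are small, cysteine-rich, secreted peptides that act against fungi.

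Levels below are log2 processed signal relative to the 75th percentile of the same array, so a level of 0 is the 75th percentile, and the levels of different probes are not set against each other. Differences are between group means, with the standard error (SE) of 1 limma fit over all 12 arrays. This SE averages the spread of the 4 groups and is moderated, that is, drawn toward a value shared by all genes. For a gene whose spread differs between groups, such as the defensins, it is not the spread of the groups compared. Leaf markers were present: 3 of 3 mesophyll markers and 4 of 4 guard cell markers were well above background on all 12 arrays. Of the other organs' markers, the seed genes CRU3 and SESA2, the root genes CASP1 and BGLU22 and the flower genes AP1 and AP3 were well above background on none. The flower genes AG and PI passed on 11 and 9 arrays, the root gene PYK10 on 10, and the seed genes CRA1 and OLEO1 on 4 and 1. Correlations between arrays of one group, taken across genes, were 0.972 to 0.992. No slide held both genotypes at one stage: slide 1 held all 3 Col DAE14 arrays and Col DAE28 replicate 1, slide 2 held Col DAE28 replicates 2 and 3 with gvs1-1 DAE14 replicates 1 and 2, and slide 3 held gvs1-1 DAE14 replicate 3 and all 3 gvs1-1 DAE28 arrays. With slide as a block a genotype difference is therefore indirect. At DAE28 it runs through gvs1-1 DAE14 replicate 3, and at DAE14 through Col DAE28 replicate 1. Each is the single array of its group on its slide.

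The 8 measured genes did not move as a block. Between DAE28 and DAE14 the regulators ERF1 and ORA59 and the chitinase gene CHI-B were higher at DAE28 on every array of both genotypes. In Col the defensins PDF1.2a, PDF1.2b, PDF1.2c and PDF1.3 were 9.02-fold to 12.4-fold lower at DAE28. In gvs1-1 the same defensin probes were higher than in Col on every array at both stages, by 7.40-fold to 13.2-fold, while their spread among gvs1-1 samples was wide. With another background correction, normexp, the defensin differences with age in Col and between genotypes at DAE28 were smaller, as given below. CHI-B was lower in gvs1-1 than in Col at DAE28 by 1.60-fold. HEL/PR4 was lower there by 1.37-fold, a log2 difference of -0.45 ± 0.33 that became 0.39 with slide as a block.

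ERF1 encodes an AP2/ERF activator that EIN3 switches on directly. Its levels were 0.18, 0.41 and 0.37 in gvs1-1 at DAE28, against -2.36, -1.89 and -2.72 in gvs1-1 at DAE14. In Col they were 1.54, -0.42 and -0.12 at DAE28, against -2.61, -3.04 and -2.70 at DAE14. Every DAE28 array therefore stood above every DAE14 array, and Col DAE28 replicate 1 stood apart as the highest of the 12. The DAE28 minus DAE14 difference was 2.64 ± 0.43 in gvs1-1 and 3.12 ± 0.43 in Col. Without Col DAE28 replicate 1 the Col difference was 2.52. Between genotypes the arrays overlapped at both stages, with gvs1-1 minus Col differences of -0.02 ± 0.43 at DAE28 and 0.46 ± 0.43 at DAE14. Within the arrays scanned on day 1 these were -1.22 at DAE28 and 0.06 at DAE14, each resting on a single array of one genotype. With slide as a block they were 1.18, through gvs1-1 DAE14 replicate 3, and 2.46, through Col DAE28 replicate 1.

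ORA59 encodes the related AP2/ERF factor that integrates both hormones at the PDF1.2 promoter. Its levels were 1.14, 0.11 and 0.43 in gvs1-1 at DAE28, against -0.15, -0.98 and -1.65 in gvs1-1 at DAE14. In Col they were 0.16, -0.54 and -0.91 at DAE28, against -1.50, -1.44 and -2.19 at DAE14. The DAE28 arrays were again all above the DAE14 arrays of the same genotype. The difference with age was 1.49 ± 0.42 in gvs1-1 and 1.28 ± 0.42 in Col. The gvs1-1 minus Col difference was 0.99 ± 0.42 at DAE28 and 0.78 ± 0.42 at DAE14, and at both stages the genotypes overlapped. With slide as a block these were 2.37 and 2.03, through the same single arrays as for ERF1. Within the arrays scanned on day 1 they were 0.40 and 0.06, each resting on a single array of one genotype. Leaving out gvs1-1 DAE14 replicate 1, the highest array of its group, brought the DAE14 value to 0.39.

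PDF1.2a, the defensin most used as a readout of this branch, was at -1.47, 0.00 and 3.25 in gvs1-1 at DAE28, against 4.32, 1.57 and 4.64 in gvs1-1 at DAE14. In Col it was at -2.40, -3.57 and -2.71 at DAE28, against 0.48, 0.91 and -0.55 at DAE14. All 3 gvs1-1 arrays were above all 3 Col arrays at each stage. The gvs1-1 minus Col difference was 3.48 ± 1.13 at DAE28, or 11.2-fold, and 3.23 ± 1.13 at DAE14, or 9.39-fold. The DAE28 minus DAE14 difference was -3.17 ± 1.13 in Col, where the stages did not overlap. In gvs1-1 it was -2.92 ± 1.13, and the stages overlapped, because DAE28 replicate 3 was above DAE14 replicate 2.

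PDF1.2b, a close copy, was at -2.54, -1.17 and 2.07 in gvs1-1 at DAE28, against 3.40, 0.62 and 3.48 in gvs1-1 at DAE14. Its Col levels were -3.53, -5.49 and -3.71 at DAE28, against -0.53, 0.14 and -1.43 at DAE14. Its lowest level was in Col DAE28 replicate 2. The gvs1-1 minus Col difference was 3.69 ± 1.15 at DAE28 and 3.11 ± 1.15 at DAE14, and the age difference was -3.05 ± 1.15 in gvs1-1 and -3.63 ± 1.15 in Col.

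PDF1.2c stood at -1.95, -0.42 and 2.75 in gvs1-1 at DAE28, against 3.89, 1.26 and 4.22 in gvs1-1 at DAE14. In Col it stood at -2.97, -4.71 and -3.11 at DAE28, against -0.08, 0.59 and -1.01 at DAE14. Its order of the 12 arrays was that of PDF1.2a. The gvs1-1 minus Col difference was 3.72 ± 1.15 at DAE28 and 3.29 ± 1.15 at DAE14, and the age difference was -3.00 ± 1.15 in gvs1-1 and -3.43 ± 1.15 in Col.

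PDF1.3, the remaining measured defensin of the class, stood at -2.09, -0.55 and 2.61 in gvs1-1 at DAE28, against 3.61, 1.06 and 4.01 in gvs1-1 at DAE14. Its Col levels were -2.84, -4.67 and -3.16 at DAE28, against 0.05, 0.78 and -0.80 at DAE14. The groups lay as for the PDF1.2 probes, with gvs1-1 above Col at each stage. The gvs1-1 minus Col difference was 3.55 ± 1.14 at DAE28 and 2.89 ± 1.14 at DAE14, and the age difference was -2.90 ± 1.14 in gvs1-1 and -3.57 ± 1.14 in Col.

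**Figure D1:**
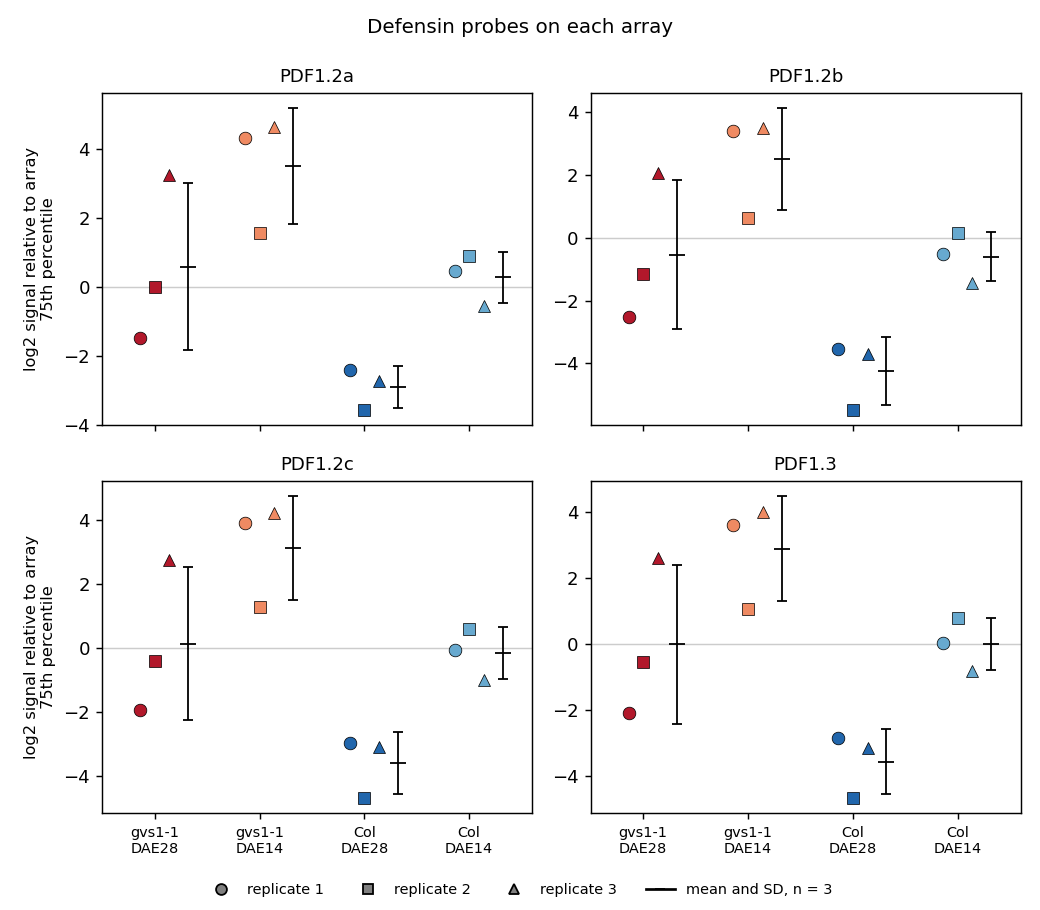
Level of each defensin probe on each array (y axis, log2 signal relative to the array's 75th percentile) in the 4 groups. Coloured symbols are arrays, shaped by replicate, and black bars are the mean and SD (n = 3). The gvs1-1 arrays lie above the Col arrays of the same stage in all 4 panels, and gvs1-1 DAE28 spans 4.61 to 4.73 log2 units.

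These 4 probes do not count as 4 separate observations. PDF1.2a and PDF1.2c are neighbouring genes, as are PDF1.2b and PDF1.3, and the genes are close copies, so a probe may read the transcripts of the others; the probe sequences were not used here. Over the 12 arrays their pairwise Pearson correlations were 0.996 to 0.999 in all 6 pairs. The mean of the 4 probes was -2.01, -0.53 and 2.67 in gvs1-1 at DAE28, 3.81, 1.13 and 4.09 in gvs1-1 at DAE14, -2.93, -4.61 and -3.17 in Col at DAE28, and -0.02, 0.60 and -0.95 in Col at DAE14. By group mean the order was gvs1-1 DAE14, gvs1-1 DAE28, Col DAE14 and Col DAE28. The neighbouring pairs gvs1-1 DAE14 with gvs1-1 DAE28, and gvs1-1 DAE28 with Col DAE14, overlapped in their arrays, and Col DAE28 overlapped with no other group.

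PDF1.1, a relative best known from seeds, was not well above background on any of the 12 arrays. Its processed signal was 1.57 to 3.52, below the lowest signal of any probe well above background, which was 6.77 to 15.0 over the arrays. No difference between groups is given for it.

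The defensins also varied widely among the samples of gvs1-1. In gvs1-1 at DAE28 the standard deviation of PDF1.2a was 2.42, and only 5 of the 19152 genes had a larger one; the other defensins were exceeded by 6 to 10 genes. In gvs1-1 at DAE14 the defensin standard deviations were 1.60 to 1.69, exceeded by 115 to 141 genes. In Col they were 0.61 to 1.08 at DAE28 and 0.75 to 0.80 at DAE14. Replicate 3 was the high array in gvs1-1 at DAE28 and replicate 2 the low array at DAE14.

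The gvs1-1 DAE28 arrays also differed in a marker of senescing leaf. SAG12, a cysteine protease gene switched on late in leaf senescence, was at -0.06, -1.54 and -5.90 in replicates 1, 2 and 3, against 6.82, 6.62 and 6.52 in Col at DAE28. Replicate 3, with the highest defensin level, had the lowest SAG12, and replicate 1, with the lowest defensin level, had the highest. PYK10, listed as a root marker, was at -1.80, -2.42 and -6.47 in the same 3 arrays, while the root genes CASP1 and BGLU22 stayed at background. The carbonic anhydrase gene CA1, a mesophyll marker, was at 3.12, 2.91 and 3.44 there. The part of these differences in the defensin values was not tested; in whole leaves, fewer cells of a type and less RNA per cell cannot be told apart.

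Leaving out single arrays moved the size of the defensin differences with age and between genotypes but not their sign. Without gvs1-1 DAE28 replicate 3 the PDF1.2a age difference in gvs1-1 was -4.25 and the genotype difference at DAE28 was 2.15. Without gvs1-1 DAE28 replicate 1 these were -1.89 and 4.52. Leaving out gvs1-1 DAE14 replicate 3 or 2 gave genotype differences at DAE14 of 2.67 and 4.20. Within the arrays scanned on day 1, the gvs1-1 minus Col differences of the defensins were 2.83 to 3.10 at DAE28, with 1 Col array, and 4.0 to 4.38 at DAE14, with 1 gvs1-1 array. With slide as a block they were 2.04 to 2.58 at DAE28 and 3.41 to 3.69 at DAE14. With values of the authors' deposited table in the same fit, the defensin differences were 2.74 to 3.13 at DAE28 and 2.67 to 3.12 at DAE14. With normexp background correction they were 2.15 to 2.65 at DAE28 and 2.74 to 3.22 at DAE14. The defensin age differences with normexp were -2.43 to -2.00 in Col and -2.89 to -2.79 in gvs1-1.

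HEL/PR4 encodes a hevein-like chitin-binding protein. Its levels were 4.18, 3.67 and 4.40 in gvs1-1 at DAE28, against 5.10, 4.07 and 3.73 in gvs1-1 at DAE14. In Col they were 4.51, 4.52 and 4.58 at DAE28, against 3.89, 4.05 and 3.37 at DAE14. Col at DAE28 was the tightest group, with a range of 0.06, and was above all Col DAE14 and all gvs1-1 DAE28 arrays. The age difference was -0.22 ± 0.33 in gvs1-1, with overlap, and 0.77 ± 0.33 in Col, without overlap. At DAE28 the gvs1-1 minus Col difference was -0.45 ± 0.33, and it was 0.39 with slide as a block. At DAE14 it was 0.53 ± 0.33 with overlapping arrays, and 0.14 without gvs1-1 DAE14 replicate 1.

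CHI-B encodes a basic vacuolar chitinase, a classical ethylene-responsive protein. Its levels were -0.81, -0.89 and -0.85 in gvs1-1 at DAE28, against -3.14, -3.55 and -2.77 in gvs1-1 at DAE14. In Col they were -0.07, -0.21 and -0.23 at DAE28, against -3.43, -3.87 and -3.79 at DAE14. Both DAE28 groups were tight and did not overlap, with gvs1-1 below Col. The age difference was 2.31 ± 0.18 in gvs1-1 and 3.52 ± 0.18 in Col. The gvs1-1 minus Col difference was -0.68 ± 0.18 at DAE28 and 0.54 ± 0.18, with overlap, at DAE14.

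A second, dimmer CHI-B probe gave smaller age differences of 1.66 ± 0.35 in gvs1-1 and 1.88 ± 0.35 in Col. On this probe the genotype difference was -0.67 ± 0.35 at DAE28 and -0.44 ± 0.35 at DAE14, so the probes differ in sign at DAE14. The gap between the genotypes in their age change, the interaction, was -1.22 ± 0.26 on the main probe and -0.22 ± 0.49 on the second.

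**Figure D2:**
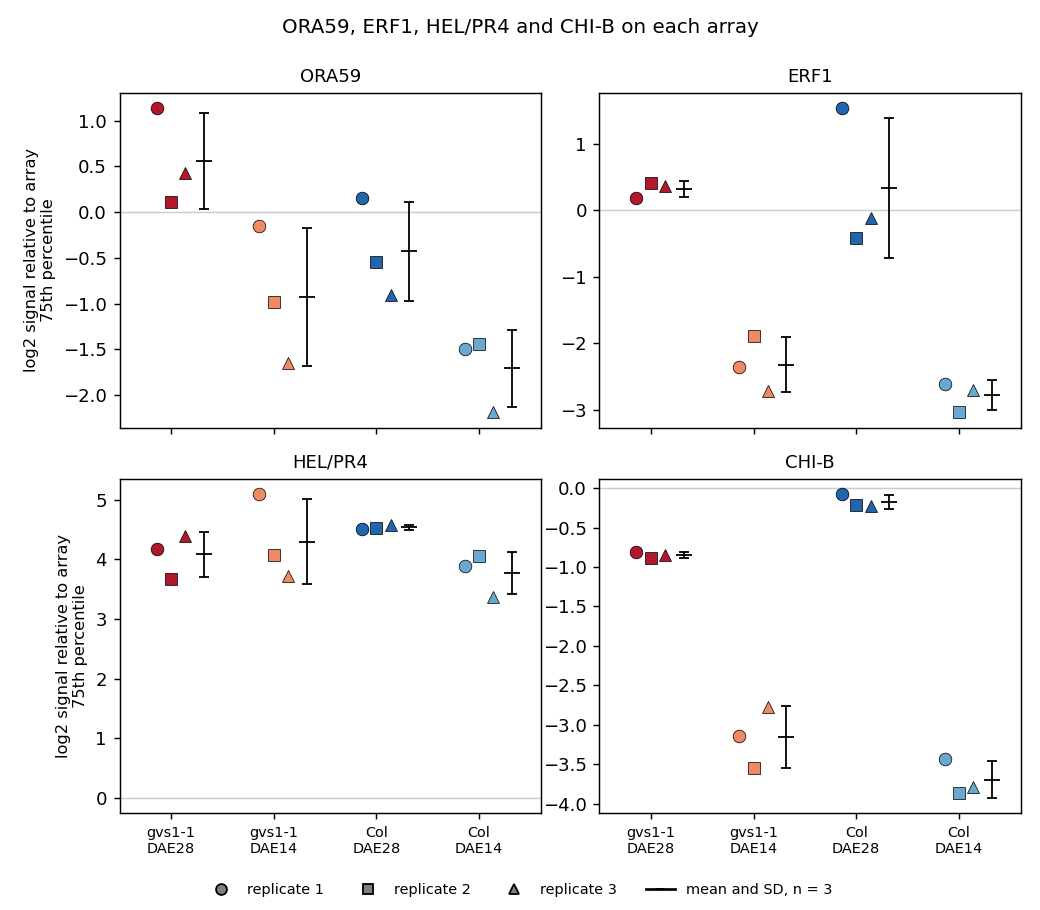
Levels of ORA59, ERF1, HEL/PR4 and CHI-B on each array (y axis, log2 signal relative to the array's 75th percentile) in the 4 groups. Coloured symbols are arrays and black bars the mean and SD (n = 3). ERF1, ORA59 and CHI-B are higher at DAE28 than at DAE14 in both genotypes, and Col DAE28 spans 0.06 for HEL/PR4.

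Counted over the 8 measured genes, 3 were higher at DAE28 than at DAE14 on every gvs1-1 array, 0 were lower on every array and 5 overlapped. Of all genes tested, 35.6% were higher and 33.2% lower without overlap in this comparison. In Col 4 were higher and 4 lower, where 37.9% and 37.6% of all genes were. At DAE28, 4 were higher and 2 lower in gvs1-1 than in Col, against 24.1% and 21.5% of all genes, and at DAE14 4 were higher and 0 lower, against 12.2% and 15.7%. The rule saw these same contrasts, and the 4 higher genes at each stage are the 4 defensin probes, so nothing is read from these counts.

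**Figure D3:**
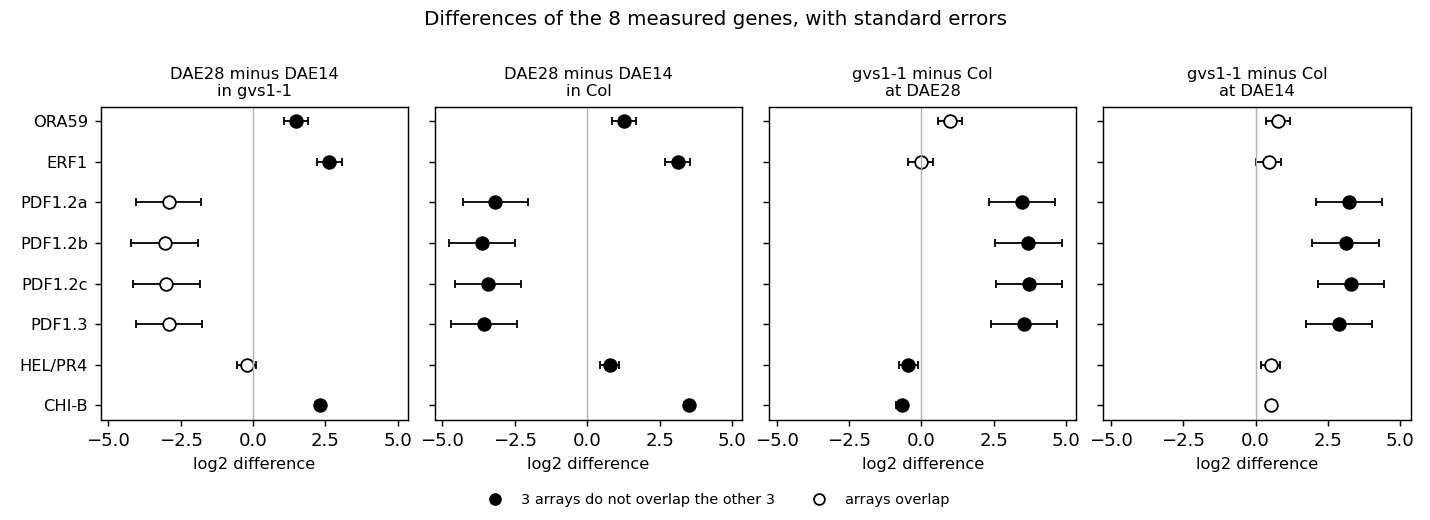
Difference in group means of each measured gene (x axis, log2) with its SE (bars), for the age comparison in each genotype and the genotype comparison at each stage. Filled circles mark genes whose 3 arrays in one group do not overlap the 3 in the other. The defensins lie left of 0 with age and right of 0 between genotypes, while ERF1, ORA59 and CHI-B lie right of 0 with age.

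The median difference of the 8 genes lay between the defensins and the rest and describes neither. With age it was -1.56 in gvs1-1 and -1.20 in Col, where the medians of all genes were 0.06 and 0.01. Between gvs1-1 and Col it was 2.24 at DAE28 and 1.83 at DAE14, against 0.04 and 0.01 for all genes. For the 4 defensins alone the medians were -2.96 in gvs1-1 and -3.50 in Col with age, and 3.62 at DAE28 and 3.17 at DAE14 between genotypes. The interaction of the defensins was 0.25 to 0.66 with SEs of 1.60 to 1.63. It was -1.08 to -0.64 without gvs1-1 DAE28 replicate 3, 1.29 to 1.70 without replicate 1 of that group, and -1.37 to -1.1 with slide or scan day as a block, so the design did not resolve whether their age change differed between genotypes. That of HEL/PR4 was -0.99 ± 0.46, that of ERF1 -0.48 ± 0.61 and that of ORA59 0.21 ± 0.59. With slide or scan day as a block these were -0.4, -1.28 and 0.34. With single arrays left out they were -1.27 to -0.59, -0.85 to 0.13 and -0.15 to 0.6.

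Set against each other by array, the regulators and the defensins did not order the groups alike. The mean of ORA59 and ERF1 was 0.66, 0.26 and 0.40 in gvs1-1 at DAE28 and 0.85, -0.48 and -0.51 in Col at DAE28. It was -1.26, -1.44 and -2.19 in gvs1-1 at DAE14 and -2.06, -2.24 and -2.44 in Col at DAE14. The defensins were highest in gvs1-1 at DAE14, a group with low regulator levels, and lowest in Col at DAE28, a group with high ones. Because the arrays fall into 2 stages on the regulator axis, no pooled correlation is given.

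**Figure D4:**
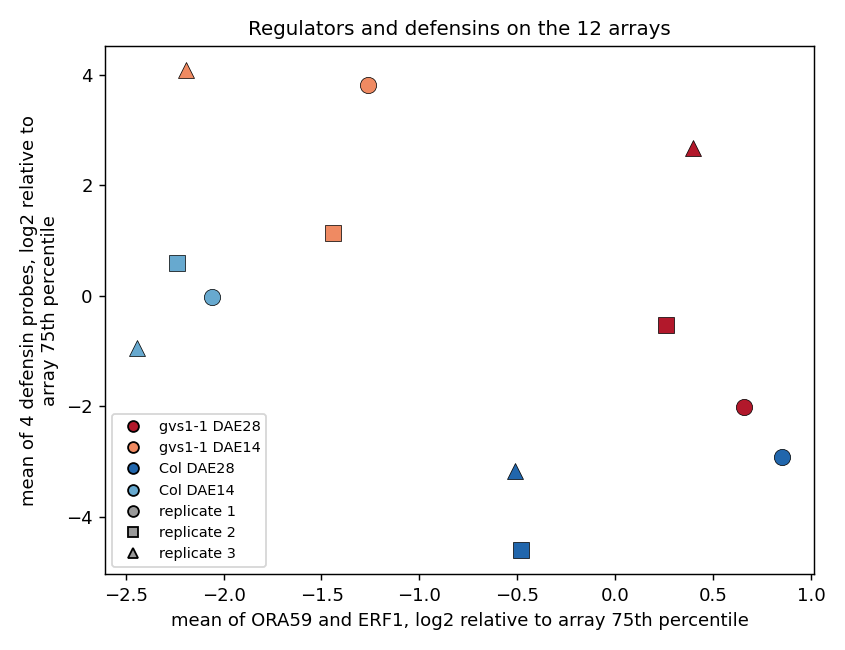
Mean of the 4 defensin probes (y axis) against the mean of ORA59 and ERF1 (x axis), both log2 relative to the array's 75th percentile, for the 12 arrays, coloured by group and shaped by replicate. DAE14 arrays lie to the left and DAE28 arrays to the right, and at each stage the gvs1-1 arrays lie above the Col arrays.

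Genes outside the set with the most similar pattern were taken from the 16494 non-member genes well above background on all 12 arrays, by Pearson correlation over the 12 arrays. For PDF1.2a they were AT1G34350 (0.937), AT5G11640 (0.918), CYP96A4 (0.91), AT1G61310 (0.903) and FASS (0.895). For HEL/PR4 they were AT2G04520 (0.862), EIF4E (0.86), AlaAT1 (0.853), TOC64-III (0.831) and AT1G66070 (0.829). None of these 10 lies on the lists of pathway genes used here, and all points share the arrays and their scaling. As the highest of 16494 correlations over only 12 arrays, the values are raised by that selection. They were not tested and do not establish that the genes are expressed together.

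The other genes of the pathway were taken from 8 lists of 73 genes, of which 70 were measured, and were tested by limma's moderated test with Benjamini-Hochberg adjustment over all 19152 genes, two-sided, at an adjusted p of 0.05. With age in gvs1-1, 25 rose and 10 fell, where 31.3% of all genes rose and 30% fell. With age in Col, 30 rose and 10 fell, where 35.8% of all genes rose and 36.1% fell. The genotype comparison at DAE28 called 7 higher and 5 lower in gvs1-1, against 17.8% and 15.3% of all genes. With slide as a block 6 genes were called at DAE28. The calls of ANAC055, AT4G16260, EP3, ERF4, ERF5, ERF6, LOX2 and THI2.2 described below were lost, each with its sign kept. Of these, AT4G16260 shrank from -1.1 to -0.16, whereas ERF4, ERF5 and ERF6 grew to 1.54, 3.04 and 3.77. With scan day as a block 7 were called, and the calls of AT4G16260, EP3, ERF4, ERF5 and PDF2.1 were lost. At DAE14 limma called 0 of the 70, against 0.047% of all genes higher and 0.266% lower. Of the 70, 19 had an unadjusted p under 0.05. The share of all genes at that unadjusted threshold was not counted, so the 19 have no share to stand beside. The interaction called 3 higher and 7 lower, against 9.82% and 8.83%. The median difference of the 70 was 0.67 in gvs1-1 and 0.85 in Col with age, and -0.07 at DAE28 and 0.16 at DAE14 between genotypes. The lists were chosen with earlier results of these data known, so nothing is read from these counts and medians. The same holds for the counts of single lists below, which stand beside the same shares of all genes.

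**Figure D5:**
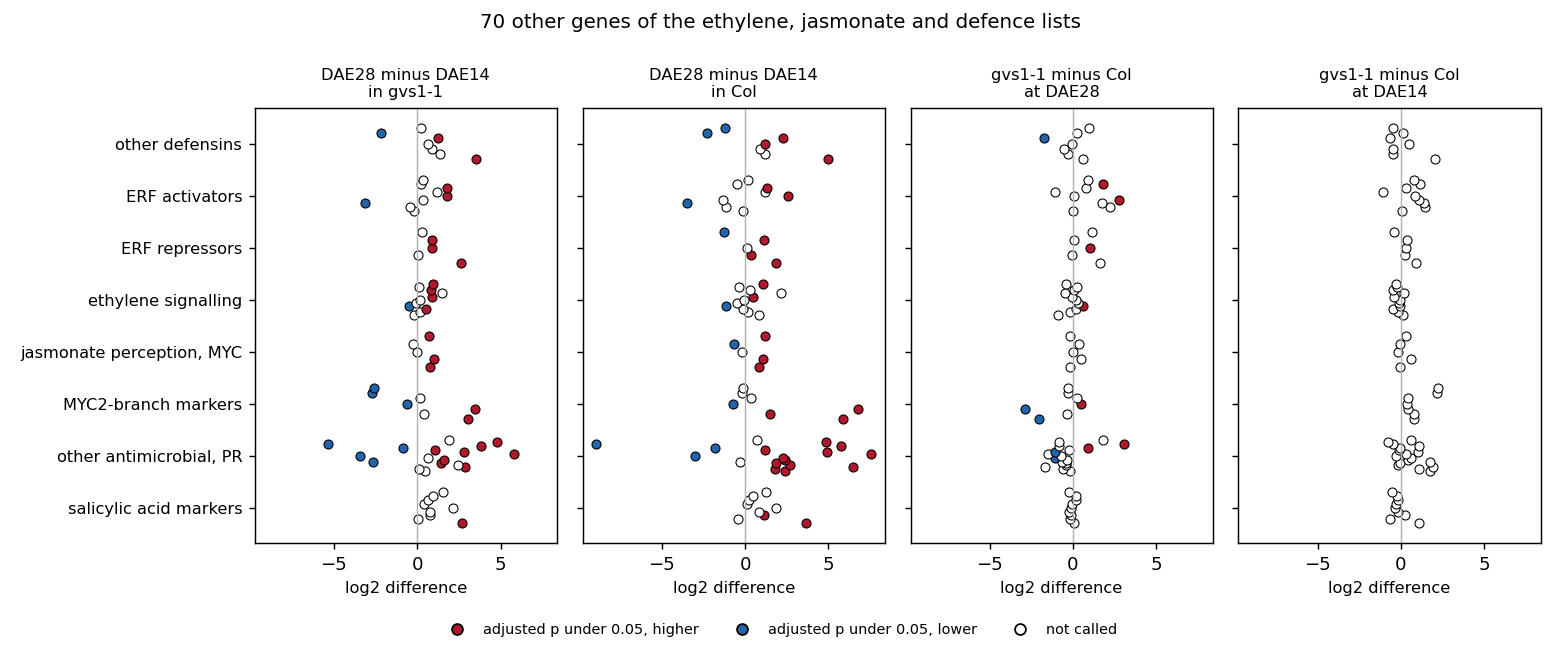
Difference in group means (x axis, log2) of the 70 measured pathway genes, 1 circle per gene, by list (rows) and comparison (panels). Red and blue circles are genes higher or lower at a limma adjusted p under 0.05, and white circles are not called. No circle is filled for gvs1-1 minus Col at DAE14.

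Of 11 ethylene perception and signalling genes, 4 rose and 1 fell with age in gvs1-1, and 2 rose and 1 fell in Col. EIN3, the factor that activates ERF1, rose by 0.86 ± 0.16 in gvs1-1 (adjusted p = 0.0011) and 0.46 ± 0.16 in Col (adjusted p = 0.0263), the Col call being lost with normexp background correction (0.38) and in 3 of the 12 fits that each left out 1 array. EIN2, the membrane protein that relays the signal, rose by 0.84 ± 0.15 in gvs1-1 (adjusted p = 0.00092) and differed by 0.28 ± 0.15 in Col (adjusted p = 0.126), where it was called in 6 of 23 alternatives, among them median centring (0.45), scan day as a block (0.45) and the authors' deposited table (0.44). EIL1, the paralogue of EIN3, fell by 0.52 in gvs1-1 (SE 0.12, adjusted p = 0.00465) and fell by 1.16 in Col (SE 0.12, adjusted p = 1.38e-05). At DAE28 EIL1 was the single list member called, 0.59 ± 0.12 higher in gvs1-1 (adjusted p = 0.0056). EBF2, an F-box gene whose product degrades EIN3, rose by 0.95 ± 0.37 in gvs1-1 and 1.1 ± 0.37 in Col, with adjusted p of 0.0433 and 0.0196, calls lost in 6 and 3 of the 12 such fits. With scan day as a block neither EBF2 call held (0.91 and 1.15), and with slide as a block the gvs1-1 call did not (1.2).

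Of 9 other AP2/ERF activators measured, 2 rose and 1 fell with age in each genotype. Of all genes, 31.3% rose and 30% fell in gvs1-1, and 35.8% rose and 36.1% fell in Col. ERF1A, a GCC-box activator and not the member ERF1, rose by 1.81 ± 0.35 in gvs1-1 (adjusted p = 0.00123) and 2.55 ± 0.35 in Col (adjusted p = 7.79e-05). ERF2 rose by 1.78 ± 0.39 and 1.33 ± 0.39, the Col call being lost with scan day as a block (1.2). TDR1, the gene next to ERF1 on the chromosome, fell by 3.14 in gvs1-1 and fell by 3.48 in Col (SE 0.99 each, adjusted p = 0.019 and 0.00936), while its neighbour ERF1 was higher at DAE28 on every array. The TDR1 probe was well above background on all arrays at DAE14, and on 1 of 3 Col arrays at DAE28. The gvs1-1 call was lost without gvs1-1 DAE14 replicate 2 (-2.69) or DAE28 replicate 1 (-2.29), and with slide blocked (-2.95). In Col the difference no longer passed with slide (-1.41) or scan day (-2.54) as a block, nor with normexp (-0.79).

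At DAE28 2 of these 9 activators were called, both higher in gvs1-1. ERF6 was at 1.54, 1.87 and 2.44 in gvs1-1, against 0.17, -0.54 and -1.97 in Col, a difference of 2.73 ± 0.62 (adjusted p = 0.00798). ERF5 was at 0.63, 1.14 and 1.77 in gvs1-1, against 0.05, -0.83 and -1.15 in Col, a difference of 1.82 ± 0.50 (adjusted p = 0.0193). No gvs1-1 array overlapped a Col array for either gene, both of which encode stress-responsive activators that bind the GCC box. The ERF5 call was lost without Col DAE28 replicate 2 or 3 or gvs1-1 DAE28 replicate 3 (1.53 to 1.73), and with slide as a block both calls were lost, at 3.77 for ERF6 and 3.04 for ERF5.

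Among 5 ERF repressors, which compete for the same GCC box, 3 rose and 0 fell with age in gvs1-1, and 3 rose and 1 fell in Col. ERF11 rose by 2.6 ± 0.58 in gvs1-1 (adjusted p = 0.00315) and 1.87 ± 0.58 in Col (adjusted p = 0.0148), the Col call being lost without Col DAE14 replicate 1 or Col DAE28 replicate 1. ERF7 rose by 0.89 ± 0.22 and 1.16 ± 0.22. ERF4 rose by 0.86 ± 0.25 with age in gvs1-1 (adjusted p = 0.0124, lost at 0.81 with scan day as a block) and at DAE28 was 1.02 ± 0.25 higher in gvs1-1 than in Col (adjusted p = 0.0113). ERF9, which is known to repress PDF1.2, fell by 1.26 in Col (SE 0.51, adjusted p = 0.0458). This call was lost in 7 of the 12 fits with 1 array left out, with slide (-0.99) or scan day (-1.37) as a block, and with normexp (-0.59).

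In the jasmonate list and the MYC2 branch, MYC2 rose with age by 0.98 ± 0.22 in gvs1-1 (adjusted p = 0.00336) and 1.09 ± 0.22 in Col (adjusted p = 0.00131), MYC3 by 0.72 ± 0.11 and 1.19 ± 0.11, and PFT1, the Mediator subunit needed for jasmonate-induced PDF1.2, by 0.77 ± 0.13 and 0.86 ± 0.13. The receptor gene COI1 differed by 0.00 ± 0.10 in gvs1-1 and -0.19 ± 0.10 in Col, with adjusted p of 0.976 and 0.121. VSP2, a vegetative storage protein gene, was at -1.84, -0.05 and -2.03 in gvs1-1 at DAE28, against 1.74, 1.47 and 0.93 in gvs1-1 at DAE14. In Col it was at -1.93, -1.40 and 0.29 at DAE28, against -0.86, -1.43 and -0.14 at DAE14. VSP2 fell with age in gvs1-1 by 2.69 (SE 0.65, adjusted p = 0.0047) and differed by -0.20 ± 0.65 in Col (adjusted p = 0.792). With slide as a block its gvs1-1 call was lost, at -2.24. The difference between these changes was -2.48 ± 0.91 (adjusted p = 0.0829). At DAE14, where all 3 gvs1-1 arrays were above all 3 Col arrays, the genotype difference of VSP2 was 2.19 ± 0.65 with an adjusted p of 0.168. At DAE28 that difference was -0.30 ± 0.65.

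ANAC019 and ANAC055, the NAC factors downstream of MYC2, had the largest differences with age on the list of 7 MYC2-branch genes, of which 2 rose and 3 fell in gvs1-1 and 3 rose and 1 fell in Col. ANAC055 rose by 3.46 ± 0.48 in gvs1-1 and 6.78 ± 0.48 in Col, and ANAC019 by 3.07 ± 0.29 and 5.86 ± 0.29. At DAE28 ANAC055 was -2.89 ± 0.48 and ANAC019 -2.03 ± 0.29 in gvs1-1 relative to Col, with adjusted p of 0.00203 and 0.00103. These 2 NAC genes and the defensins had opposite signs between genotypes at DAE28, the NAC genes being lower and the defensins higher in gvs1-1. The list as a whole did not share this: at DAE28, 2 of its 7 genes were called lower, 1 higher and 4 not called. At DAE14, 0 of the 7 were called, and their median gvs1-1 minus Col difference was 0.76, the sign of the defensins. LOX2, a chloroplast lipoxygenase of jasmonate synthesis, was 0.47 ± 0.11 higher in gvs1-1 at DAE28 (adjusted p = 0.00955). The LOX2 call was lost with quantile normalization (0.23), with normexp (0.46) and with slide as a block (0.53). TAT3, a jasmonate-induced tyrosine aminotransferase gene, rose in Col by 1.51 ± 0.58 (adjusted p = 0.0373). The TAT3 call was lost in 5 of the 12 fits with 1 array left out, with slide as a block (1.58), with normexp (1.34) and in the authors' deposited table (1.26).

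Of 7 other defensins measured, 2 rose and 1 fell with age in gvs1-1, and 3 rose and 2 fell in Col. PDF1.4 rose by 3.54 ± 1.08 in gvs1-1 (adjusted p = 0.0161) and 4.99 ± 1.08 in Col (adjusted p = 0.0019), the opposite sign to PDF1.2a, and was well above background at DAE14 on 2 of 3 arrays in gvs1-1 and 1 of 3 in Col. With slide or scan day as a block its gvs1-1 call was lost (2.63 and 3.25), and with normexp the PDF1.4 differences were 1.98 in gvs1-1 and 2.25 in Col. PDF2.1 rose by 1.23 ± 0.45 in gvs1-1 (adjusted p = 0.0352) and 2.3 ± 0.45 in Col (adjusted p = 0.000944). Its gvs1-1 call was lost in 4 of the 12 fits with 1 array left out, with slide as a block (0.79), with the replicate block (1.23), with normexp (0.25) and in the authors' deposited table (0.64). PDF2.3 fell by 2.15 in gvs1-1 and fell by 2.27 in Col (SE 0.16 each). At DAE28 PDF2.1 was the single one called, -1.73 ± 0.45 in gvs1-1 relative to Col (adjusted p = 0.0147), which was lost without gvs1-1 DAE28 replicate 3 (-1.48).

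Among 17 other antimicrobial and pathogenesis-related genes, 8 rose and 4 fell with age in gvs1-1, and 12 rose and 3 fell in Col. OSM34, an osmotin gene not marked well above background on any DAE14 array, was in gvs1-1 at least 24.6-fold higher at DAE28 and in Col at least 51.1-fold higher (adjusted p = 8.86e-05 and 6.72e-06). GLIP1, an ethylene-dependent secreted lipase, was at least 8.93-fold higher in gvs1-1 (adjusted p = 0.000178) and at least 10.8-fold higher in Col (adjusted p = 8.58e-05). These bounds set the mean at DAE28 against the mean, at DAE14, of the higher of the gene's own signal and the lowest signal well above background on that array. TI1, a trypsin inhibitor of the defensin-like kind, rose by 2.86 ± 0.69 in gvs1-1 (adjusted p = 0.00464) and by 6.48 ± 0.69 in Col (adjusted p = 1.28e-05).

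The thionin gene THI2.2 went the other way. It was at -4.29, -4.70 and -5.80 in gvs1-1 at DAE28, against 0.90, 0.13 and 0.27 in gvs1-1 at DAE14. In Col it was at -9.11, -9.02 and -5.87 at DAE28, where 1 of 3 arrays was well above background, against 1.07, 0.77 and 0.91 at DAE14. It fell by 5.36 in gvs1-1 and fell by 8.92 in Col (SE 0.75 each, adjusted p = 0.000166 and 2.6e-06), and with normexp the differences were -3.79 and -4.33. At DAE28 it was 3.07 ± 0.75 higher in gvs1-1 (adjusted p = 0.0113), but -0.05 with normexp background correction.

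At DAE28 the 17 genes held 2 higher and 2 lower in gvs1-1. The chitinase gene EP3 was -1.06 ± 0.26 in gvs1-1 relative to Col (adjusted p = 0.0115) and the glucanase gene AT4G16260 -1.1 ± 0.34 (adjusted p = 0.0319), a call that was lost in 6 of the 12 fits with 1 array left out. Both had the same sign as CHI-B and HEL/PR4 at that stage. With slide as a block, though, the HEL/PR4 difference became 0.39 and that of AT4G16260 was -0.16. The list's 2 higher genes, THI2.2 among them, had the opposite sign.

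Salicylic acid markers are the readout of the pathway that restrains PDF1.2. Of 9, 1 rose with age in gvs1-1 and 2 rose in Col, where 31.3% and 35.8% of all genes rose. The SE of PR1 with age was 1.25, so its missing call says little. GRX480, a glutaredoxin gene known to repress PDF1.2 when overexpressed, rose by 2.67 ± 0.42 in gvs1-1 (adjusted p = 0.000339) and 3.68 ± 0.42 in Col (adjusted p = 2.04e-05). ICS1, the isochorismate synthase gene, rose in Col by 1.11 ± 0.42 (adjusted p = 0.0359). This call was lost in 4 of the 12 fits with 1 array left out and with slide (1.22), scan day (1.28) or replicate number (1.11) as a block, and with normexp (0.98). PR1 was at 2.97, 1.21 and 2.65 in gvs1-1 at DAE28, against 2.87, 3.17 and 1.17 in Col at DAE28. At DAE14 it was at -3.18, 1.79 and 1.87 in gvs1-1, against -0.40, 1.85 and 0.15 in Col. The genotypes overlapped at both stages, with differences of -0.13 ± 1.25 and -0.37 ± 1.25 and adjusted p of 0.953 and 0.916. In gvs1-1 at DAE14 the lowest PR1 array was replicate 1, whereas the low defensin array was replicate 2.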

How the data were processed

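Total RNA of leaves was labelled with Cy3 and hybridised to one-colour Agilent arrays, per the labels. The deposited scanner files hold spot intensity values on a linear scale, written by Agilent Feature Extraction 11.5.1.1 per the file headers (11.5 per the submitters' processing notes). Its processed signal column, an intensity the authors' software had already corrected for background, was used. The authors' deposited table holds log2 values per locus; it tracked the log2 median signal of single arrays (correlation across 13392 loci 0.995 to 0.997), its medians were 8.86 to 8.91, its between-array scaling is not stated, and it served as an alternative.

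Of 43603 probes, 34348 were matched by accession to 25410 loci of the RefSeq TAIR10.1 table; the files name TAIR10, so no coordinates are given. The 166 probes marked as outliers were left out and 0 spots were saturated. Processed signal was taken relative to the array's 75th percentile (697.6 to 887.9 at DAE14, 1162 to 1561 at DAE28) on the log2 scale. Probes were kept where every array of some group, 3 of 3, was well above background (26801 probes), and the probe with the highest mean stood for its gene (19152 genes). On each array 63.9% to 72.7% of probes were well above background. The number of arrays limits the precision.

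All 4 groups were fitted in 1 model with limma 3.58.1 (lmFit, eBayes) in R 4.3.3, tested on simulated data. Each p-value sets a difference against the spread between samples within groups, averaged over the 4 groups and moderated. The groups were not balanced over slides, so the differences also take in any difference between slides. The 9 genes and the pathway and marker lists were chosen with earlier results of these data known. Named pathway genes were, per comparison and list, up to 3 called genes with the largest absolute difference that were well above background on every array of a group, plus EIN2, EIN3, COI1, MYC2, VSP2 and PR1. Alternatives were normexp on median signal with an offset of 50 (a mean signal column was not used here), quantile normalization, median centring, probe filters, the mean of probes, the authors' table, slide, scan day or replicate number as a block, and leaving out each array. An alternative with only the 8 arrays of scan day 1 was added after seeing the data. Between genotypes at DAE14, same-numbered samples deviated together for replicates 1 and 2 (correlations of 0.51 and 0.38) but not for replicate 3 (-0.1). In the other comparisons the correlations of same-numbered samples were -0.27 to 0.08. Replicate numbers were not taken as pairs.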

Additional observations from a re-analysis of the deposited data

Results flagged for a closer look

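The age change differed between the genotypes, by the interaction term of the limma fit (change in gvs1-1 minus change in Col, log2, adjusted over all genes), for 6 of the named pathway genes, and these values are given without explanation. The NAC factor genes ANAC055 and ANAC019 had interactions of -3.32 ± 0.68 (adjusted p = 0.0119) and -2.79 ± 0.41 (adjusted p = 0.00387). Neither call was lost when single arrays were left out, but that of ANAC055 was lost with slide or scan day as a block (-3.03 in each) and on scan day 1 only. TI1 (-3.62 ± 0.97, adjusted p = 0.0299), AT2G43590, a chitinase family gene (-2.38 ± 0.74, adjusted p = 0.0498), THI2.2 (3.55 ± 1.06, adjusted p = 0.043) and EIL1 (0.64 ± 0.18, adjusted p = 0.0317) also passed. Their calls were lost in 8, 9, 10 and 8 of the 12 fits with 1 array left out, in that order, and all 4 were lost with slide or scan day as a block. With normexp the THI2.2 interaction was 0.53, and its probe was well above background on 1 of 3 Col DAE28 arrays. Groups of 3 arrays are too small for the check on outlying samples.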

How the results depend on the processing

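The median differences of the 8 genes with age and between genotypes moved by less than the replicate spread under every alternative. Their median interaction, 0.23, was -1.22 with slide as a block, with scan day as a block and on scan day 1 alone. These 3 fits share the same few arrays: the interaction then rests on single Col DAE28 and gvs1-1 DAE14 arrays. For single genes, 1 alternative value changed the sign of a difference without overlap (HEL/PR4 at DAE28, 0.39 with slide as a block) and 74 moved by more than the spread. The number of pathway genes called with the interaction, 10, was 5 with normexp, 1 with slide as a block, 1 with scan day, 4 from scan day 1 only, and 5 to 14 with single arrays left out. At DAE28 the 12 calls became 6 with slide as a block, 7 with scan day as a block and 6 on scan day 1 alone. THI2.2 at DAE28 was -0.05 with normexp. The cause was not tested. Of 62 named calls, 33 were kept in every alternative that could be run and 29 were lost in at least 1. With the replicate block the pathway calls were 37 in gvs1-1 and 44 in Col with age, 15 at DAE28, 0 at DAE14 and 9 for the interaction, against 35, 40, 12, 0 and 10. What same-numbered samples share beyond the label was not established. Genes near background (TDR1, THI2.2, OSM34, GLIP1, PDF1.4) are limited by signal, and under the stricter filter, all 12 arrays above background, they could not be fitted.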
